A study of Mus musculus with 30 samples.

Results

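The 10 genes of fatty acid uptake and binding, which carry fatty acids from the blood into heart muscle, are described here in 30 mouse hearts. They were the rows of the count table whose symbol in the GENCODE mouse annotation is Lpl, Gpihbp1, Angptl4, Vldlr, Cd36, Slc27a1, Slc27a4, Fabp3, Fabp4 or Fabp5, which gave 10 rows of 55487. Poly(A) RNA of whole hearts, collected 8 weeks after surgery, was sequenced. The surgery was either a sham operation or TAC, transverse aortic constriction, in which a microclip makes the left ventricle pump against a higher pressure. In the floxed cohort, mice with a floxed Cpt1a gene (FF_sham and FF_TAC, named by genotype and operation) served as controls, and mice with a cardiac-specific Cpt1a knockout were operated in the same way (KO_sham and KO_TAC), with 4 libraries in each group. In the AAV9 cohort, C57Bl/6 mice were given PBS (PBS_sham and PBS_TAC, 3 libraries each) or AAV9.Cpt1a, a vector in which the cardiac troponin T promoter drives Cpt1a (groups AAV_sham and AAV_TAC with 4 libraries in each). The PBS mice carried no vector. The Cre driver of the knockout, and the age and sex of the mice, are not given in the sources used here, and the labels do not say which mouse received which of 2 clip sizes. Nothing states that the libraries of a group come from mice handled separately, so p-values measure the spread between these libraries.

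Most of the energy of the adult heart comes from long-chain fatty acids, which reach it bound to albumin or as triglyceride inside lipoproteins. Lipoprotein lipase, made by heart muscle cells, is carried to the capillary wall, where it releases fatty acids from the triglyceride. The acids are then taken up across endothelium and muscle cell membranes, bound by small cytosolic proteins and passed on to the mitochondria, whose outer-membrane enzyme Cpt1 commits them to oxidation. Cpt1a, the gene altered in these mice, lies downstream of all 10 genes in this route.

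Their places in the genome (GRCm38) and roles are as follows. On the lipoprotein side, Lpl (ENSMUSG00000015568, chr8:68880491-68907448, plus strand) encodes the lipase and Gpihbp1 (ENSMUSG00000022579, chr15:75596628-75599481, plus strand) the capillary anchor that holds it. Angptl4 (ENSMUSG00000002289, chr17:33773750-33781830, minus strand) encodes a secreted inhibitor of the lipase, and Vldlr (ENSMUSG00000024924, chr19:27216484-27254231, plus strand) a receptor for triglyceride-rich lipoproteins. At the membrane, Cd36 (ENSMUSG00000002944, chr5:17781690-17888801, minus strand) encodes the main fatty acid translocase of heart. Slc27a1 (ENSMUSG00000031808, chr8:71568882-71587302, plus strand) and Slc27a4 (ENSMUSG00000059316, chr2:29802634-29817522, plus strand) encode fatty acid transport proteins that also activate fatty acids to their CoA esters. Inside the cell, Fabp3 (ENSMUSG00000028773, chr4:130308595-130315463, plus strand) encodes the binding protein of heart muscle cells. Fabp4 (ENSMUSG00000062515, chr3:10204088-10208576, minus strand) encodes that of adipocytes and capillary endothelium, and Fabp5 (ENSMUSG00000027533, chr3:10012548-10016607, plus strand) a relative found in endothelium and many other cells.

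Values of Fabp3 are uncertain, because 21.69% of the 100-base stretches of its exons also occur in the pseudogene Fabp3-ps1, which had 57 to 423 counts per library, and because its exons overlap genes on the opposite strand while the strand setting of the counting is not given in the sources used here. For Fabp5, 2.19% of such stretches also occur in the copies Gm14328 and Gm6166, which had at most 4 and 17 counts. The other 8 genes shared no 100-base stretch with another gene.

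Cd36, Vldlr and Slc27a1 are the members that changed below. The 250 bases before a RefSeq start of each (GRCm38.p6) are shown so that they can be compared, 5′ to 3′ on the gene's strand, with capitals at any AGGTCA on either strand, the half-site read by PPAR and other nuclear receptors. They are Cd36 at chr5:17835897-17836146 (minus strand, a start inside the gene's annotated span), Vldlr at chr19:27216234-27216483 (plus strand) and Slc27a1 at chr8:71568621-71568870 (plus strand).
Cd36: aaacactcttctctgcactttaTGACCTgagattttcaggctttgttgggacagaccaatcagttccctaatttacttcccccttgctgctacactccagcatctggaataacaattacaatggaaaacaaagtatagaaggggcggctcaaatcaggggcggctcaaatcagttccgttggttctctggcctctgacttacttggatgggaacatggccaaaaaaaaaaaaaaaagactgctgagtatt
Vldlr: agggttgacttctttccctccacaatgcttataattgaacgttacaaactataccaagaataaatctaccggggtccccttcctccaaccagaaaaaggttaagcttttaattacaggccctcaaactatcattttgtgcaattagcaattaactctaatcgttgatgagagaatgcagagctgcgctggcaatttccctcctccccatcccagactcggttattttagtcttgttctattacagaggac
Slc27a1: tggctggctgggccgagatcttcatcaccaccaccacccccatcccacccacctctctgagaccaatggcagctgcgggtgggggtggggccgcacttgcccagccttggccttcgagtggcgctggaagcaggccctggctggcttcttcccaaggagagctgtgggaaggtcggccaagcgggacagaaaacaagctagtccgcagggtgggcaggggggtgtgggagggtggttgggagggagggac
The half-site occurred in the Cd36 window, on the minus strand of the window, 228 to 223 bases before the start. It was in neither of the other sequences, nor in the 5 further windows of Vldlr, Slc27a1, Slc27a4 and Fabp3. RefSeq promoters were found for 5 of the 10 genes, in 8 windows. Of 32841 windows of the same length, 14% held AGGTCA on either strand. The Cd36 window also held CCAAT on its plus strand, as did the Slc27a1 window shown. Of all windows, 33.9% held CCAAT on either strand. GGGCGG occurred at 2 places in the Cd36 window, and 32.7% of all windows held it at 1 place or more on either strand. These are letter matches, not measured binding sites.

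Library totals ran from 14839758 to 22070373 counts. Levels are given as CPM, which set a gene's count against the library total after TMM scaling. Cpt1a itself was at 37.8 to 52.6 CPM in FF_sham and at 11.1 to 19.6 CPM in KO_TAC, but the library labelled KO_sham 2 had 46.2 CPM where the other KO_sham libraries had 20.3 to 23.6. Within FF_TAC, Cpt1a was at 48.8 and 33.9 CPM in libraries 1 and 4 but at 20.3 and 16.2 CPM in those labelled 2 and 3. Whether these 3 libraries carry the right labels cannot be told from the files, so the labels were kept and the main results are also given without the 3. In the AAV9 cohort, Cpt1a was at 37.4 to 68 CPM in PBS_sham and 56.3 to 88.3 in AAV_sham. After TAC it was at 40.2 to 61.5 CPM in PBS_TAC and 44.8 to 62.6 in AAV_TAC, ranges that overlapped. Summed haemoglobin transcripts, here without TMM scaling, were under 100 CPM in 7 libraries, all 4 of KO_TAC (3.89 to 51.1), FF_TAC 2 and 3 and KO_sham 2 (1.4 to 3.41), and from 294 to 943 in the other 23. Summed early response genes were at 2001 to 4847 CPM in these same 7 libraries and at 157.2 to 223.2 CPM in the rest of the floxed cohort. PBS_sham 3 also stood apart, with a cardiomyocyte marker sum of 26098 CPM where PBS_sham 1 and 2 had 70110 and 54957. Its endothelium marker sum was 1755 CPM, where they had 958.4 and 887.9. KO_TAC 1 had an atrial marker sum of 8469 CPM against 3.63 to 6.75 in the other KO_TAC libraries.

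All 10 genes passed the filter on low counts in both cohorts. Per kilobase of the principal transcript, the order of mean level over the 30 libraries was Fabp3 (3889 CPM per kb), Lpl (1622), Fabp4 (576.2), Cd36 (392.9), Gpihbp1 (82.5), Slc27a1 (72.7), Vldlr (34.4), Fabp5 (31.3), Slc27a4 (6.15) and Angptl4 (3.77). The ranges of neighbours overlapped at every step but the one between Fabp5 and Slc27a4. Within FF_sham the first 4 were clear of each other and of the rest: Fabp3 lay at 3547 to 3969 CPM per kb, Lpl at 1279 to 1731, Fabp4 at 526.6 to 677.2 and Cd36 at 408.1 to 487.4. With all annotated exons as the length, Cd36 came before Fabp4, and Slc27a1 and Vldlr before Gpihbp1, so these orders rest on the length used. The 10 genes together took 1.12 to 1.25% of all counts in FF_sham and 0.694 to 1.71% in KO_TAC, the widest range of any group.

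**Figure D1:**
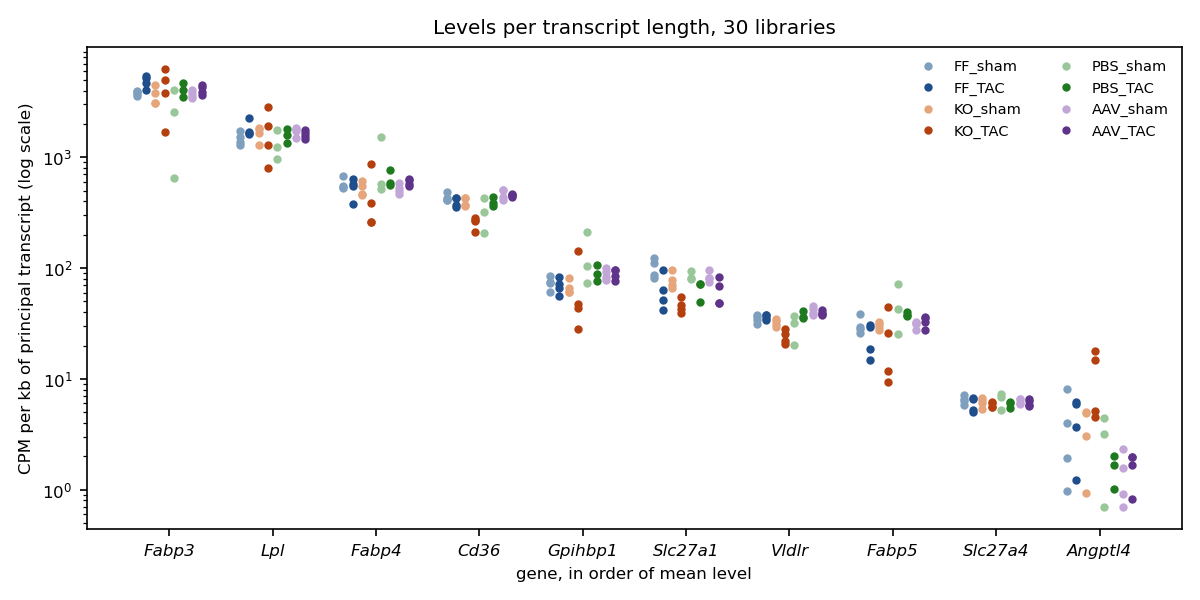
Level of each gene in CPM per kilobase of principal transcript (log scale, vertical axis), 1 point per library coloured by group, with genes ordered by their mean over 30 libraries. Fabp3 and Lpl head the order, Slc27a4 and Angptl4 end it, and the levels of Angptl4 in KO_TAC reach 17.9 CPM per kb.

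Overload of the knockout heart came with less RNA for the translocase, the lipoprotein receptor and 1 transport protein. In KO_TAC against KO_sham, Cd36, Vldlr and Slc27a1 fell and no member rose, by edgeR (quasi-likelihood test, p adjusted by Benjamini-Hochberg over 15596 genes). Of all genes tested, 25.8% changed, and 11.5% fell. The median log2 fold change of the 10 was -0.15, against 0.02 over all genes. In KO_TAC against FF_TAC, which shares the KO_TAC libraries, Cd36 and Vldlr fell and no member rose, where 14.3% of all genes changed and 6.8% fell. There the members' median was -0.15, against 0.04.

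Cd36 was at 718.6, 901.3, 960.6 and 930.5 CPM in the 4 KO_TAC libraries. It was at 1452, 1250, 1472 and 1238 CPM in KO_sham and at 1460, 1273, 1223 and 1459 CPM in FF_TAC. Every KO_TAC library was lower than every KO_sham and FF_TAC library, and lower than the FF_sham libraries (1401, 1387, 1452 and 1657 CPM). Of all genes, 12% were lower without overlap against KO_sham and 6.76% against FF_TAC. No such share was taken against FF_sham. The log2 fold change was -0.62 (SE 0.11, edgeR adjusted p = 0.00265) against KO_sham and -0.63 (SE 0.11, edgeR adjusted p = 0.00264) against FF_TAC. FF_TAC and FF_sham overlapped, with means of 1354 ± 124 and 1474 ± 125 CPM (SD, n = 4).

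Vldlr was likewise lowest in KO_TAC among the floxed-cohort groups. It was at 202.7, 165.7, 176.4 and 224.4 CPM in KO_TAC, at 234, 275.9, 265.4 and 248.7 in KO_sham and at 272.5, 299.4, 285.5 and 302.9 in FF_TAC. No KO_TAC library reached the lowest library of the other floxed-cohort groups. The log2 fold change was -0.41 (SE 0.11, edgeR adjusted p = 0.0131) against KO_sham and -0.59 (SE 0.11, edgeR adjusted p = 0.00262) against FF_TAC. FF_sham lay at 268.6, 251.5, 290.4 and 302.8 CPM and overlapped FF_TAC.

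Slc27a1 was at 153.3, 111.1, 128.7 and 119.8 CPM in KO_TAC and at 217, 271.1, 196.6 and 186.8 CPM in KO_sham. The groups did not overlap, and the log2 fold change was -0.76 (SE 0.22, edgeR adjusted p = 0.0222). This call was lost without KO_sham 2 (log2 fold change -0.65) and also without KO_TAC 2 or KO_TAC 3. Against FF_TAC, at 268.5, 116.1, 143.8 and 177.1 CPM, the ranges overlapped and the log2 fold change of -0.46 did not pass (SE 0.22, edgeR adjusted p = 0.169).

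Slc27a1 also had lower means after TAC in each of the other pairs, though none passed the test. In FF_TAC against FF_sham (229.7, 344.2, 244.3 and 309.5 CPM) the log2 fold change was -0.68 (SE 0.22, edgeR adjusted p = 0.346). FF_TAC 2 and 3, the lowest, are libraries with little haemoglobin RNA, and among libraries with 100 CPM or more of it the log2 fold change was -0.34 (edgeR adjusted p = 0.808). In PBS_TAC (201.9, 199.1 and 138.4 CPM) against PBS_sham (221.1, 226.3 and 264.8 CPM) the ranges did not overlap, as for 6.57% of all genes in that direction, yet the log2 fold change was -0.40 (SE 0.22, edgeR adjusted p = 0.324). In AAV_TAC (134.9, 136.1, 234.2 and 192.8 CPM) against AAV_sham (208.1, 229.7, 225.9 and 267.5 CPM) it was -0.42 (SE 0.19, edgeR adjusted p = 0.686).

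**Figure D2:**
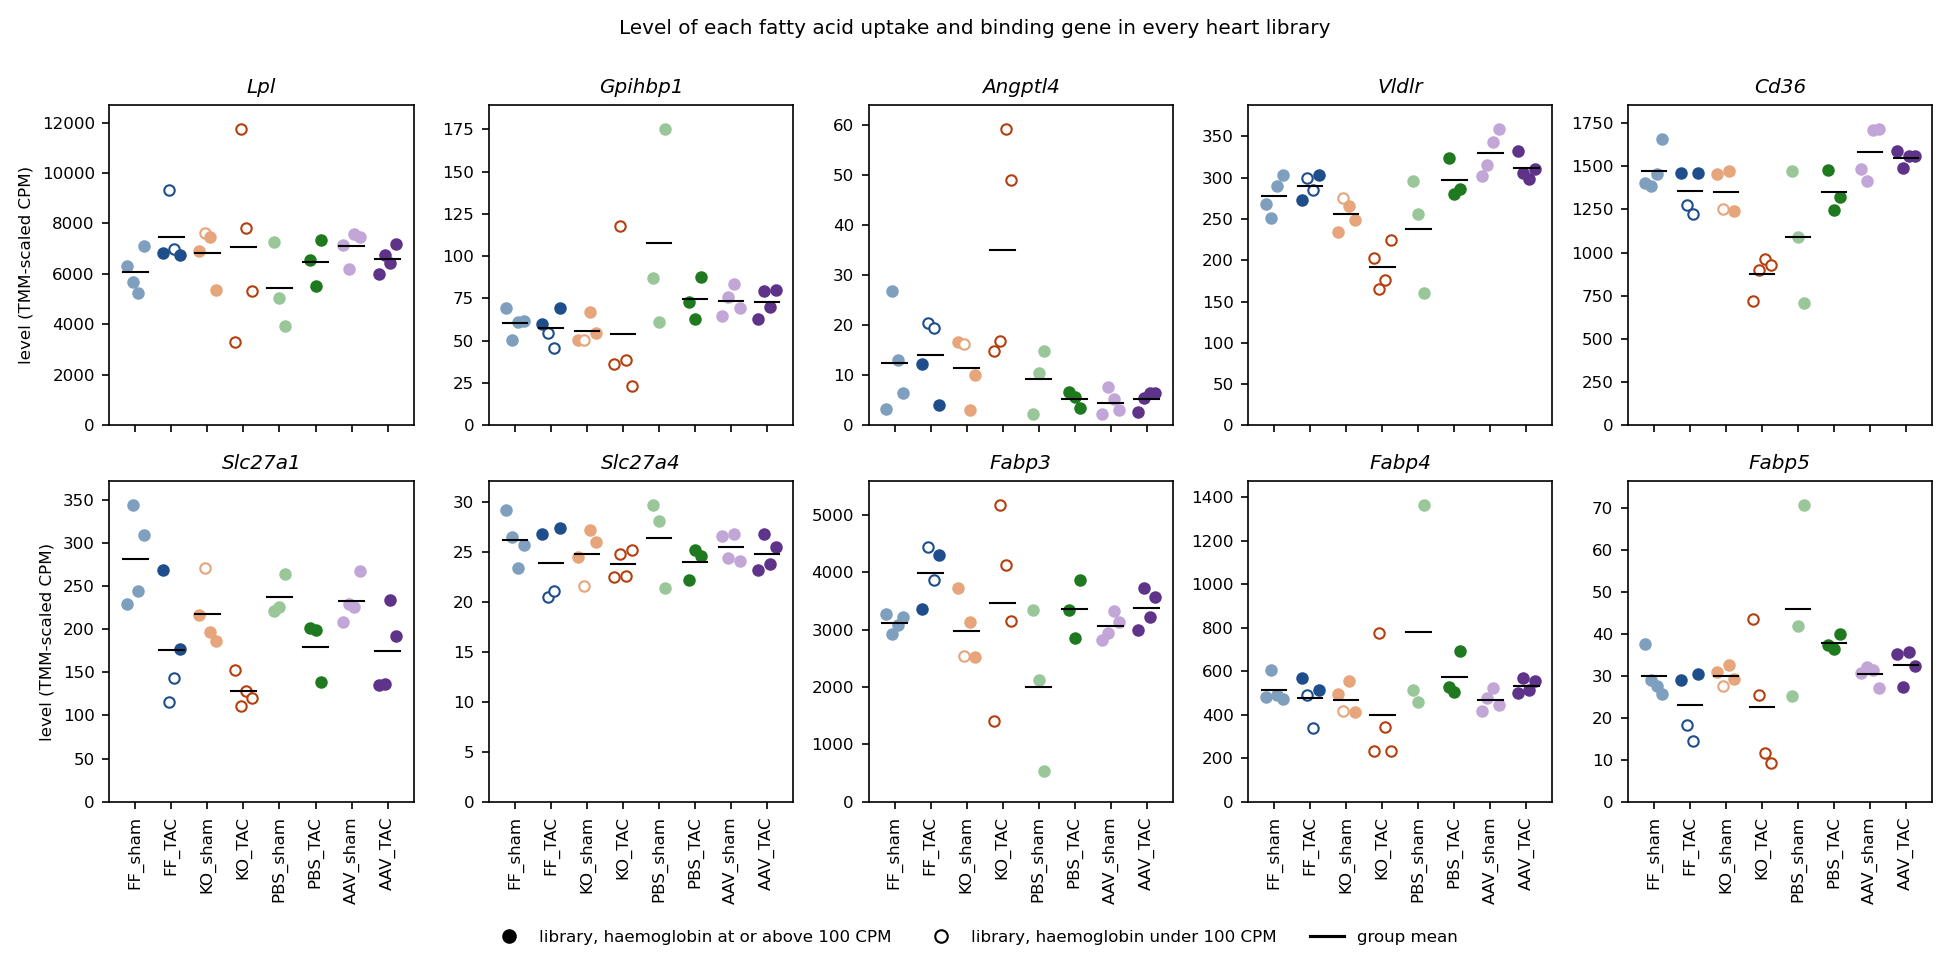
Level of each gene (vertical axis, TMM-scaled CPM, from 0) in each of the 8 groups, 1 point per library, with open points for libraries under 100 CPM of haemoglobin transcripts and a line at the group mean. The 4 KO_TAC libraries of Cd36 sit between 718.6 and 960.6 CPM, below the other groups of the floxed cohort, while those of Lpl spread from 3317 to 11746 CPM.

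Whether the effect of TAC differed between genotypes was tested as an interaction. For Cd36 the interaction was -0.50 on the log2 scale (SE 0.16, edgeR adjusted p = 0.193) and for Vldlr -0.47 (SE 0.15, edgeR adjusted p = 0.191), so neither passed. Of all genes, 0.0449% did. With DESeq2, which called 364 of 15510 genes in this interaction, that of Vldlr passed (adjusted p = 0.0486) and that of Cd36 did not. At an unadjusted p under 0.05, 2 members were lower in this interaction, Cd36 and Vldlr, where 6.54% of all genes were.

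Haemoglobin RNA separates the KO_TAC libraries from most of the others, so the groups cannot be fully told apart from that split. With a term for the split, none of the 3 calls in KO_TAC against KO_sham held: the log2 fold change was -0.48 for Cd36 and -0.47 for Vldlr (edgeR adjusted p = 0.0821 for both) and -0.62 for Slc27a1 (edgeR adjusted p = 0.213). Calls were lost over the whole table, with 273 of 15596 genes called there, where 4031 were called without the term. Against FF_TAC, the same term left Cd36 at -0.52 (edgeR adjusted p = 0.0195) and Vldlr at -0.63 (edgeR adjusted p = 0.00837). There it left 1127 of 15596 genes called, where 2235 were called without it. That every KO_TAC library lay below FF_TAC 2, FF_TAC 3 and KO_sham 2 in Cd36 and Vldlr already follows from the levels above. It is no separate result on the split. These libraries are the 7 with little haemoglobin RNA. A fit of those libraries alone gave -0.53 for Cd36 (edgeR adjusted p = 0.403) and -0.63 for Vldlr (edgeR adjusted p = 0.309) with 2 FF_TAC libraries left, and -0.04 for Slc27a1 (edgeR adjusted p = 0.964). That fit called 0 of 15311 genes. Without the libraries labelled FF_TAC 2, FF_TAC 3 and KO_sham 2, the log2 fold changes against KO_sham were -0.67 for Cd36, -0.39 for Vldlr and -0.65 for Slc27a1 (edgeR adjusted p = 0.00237, 0.0371 and 0.0201). Against FF_TAC they were -0.75, -0.59 and -0.81 (edgeR adjusted p = 0.00247, 0.00864 and 0.012), so that Slc27a1 then passed there too. Without these libraries, 3811 of 16319 genes were called against KO_sham and 3663 against FF_TAC.

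**Figure D3:**
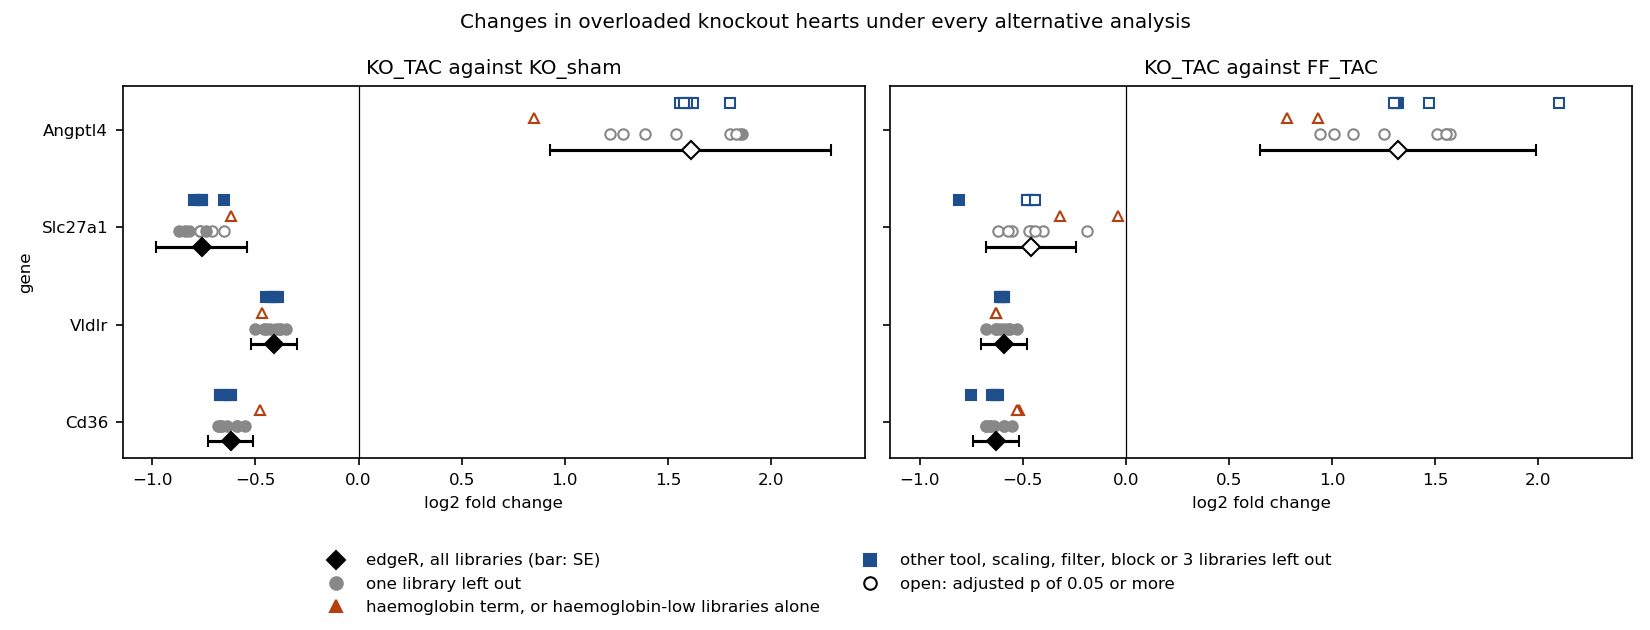
Log2 fold changes (horizontal axis) of 4 genes in KO_TAC against KO_sham and against FF_TAC: diamonds with SE bars are the edgeR values with all libraries, circles leave out 1 library each, triangles use the haemoglobin split and squares another tool, scaling, filter, block or set of libraries. Filled points have an adjusted p under 0.05. Cd36 and Vldlr stay between -0.35 and -0.75 throughout, whereas Slc27a1 against FF_TAC runs from -0.81 to -0.04.

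The lipase, its anchor and its inhibitor did not pass the test in any of the 10 comparisons. Lpl had means of 6095 ± 810 CPM in FF_sham, 7468 ± 1245 in FF_TAC and 6832 ± 1035 in KO_sham (SD, n = 4). In KO_TAC it was at 3317, 11746, 7840 and 5317 CPM, so that group held both the lowest and the highest Lpl level of the 30 libraries. Gpihbp1 in KO_TAC was at 36, 117.6, 38.9 and 23.4 CPM, with 3 of 4 below the 50.6 to 66.9 CPM of KO_sham and KO_TAC 2 above it.

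Angptl4 was low and uneven. It was at 14.9, 16.8, 59.2 and 49.1 CPM in KO_TAC, where KO_sham had 16.7, 16.2, 3.07 and 10.1 and FF_TAC had 12.2, 20.5, 19.5 and 4.03. KO_TAC 3 and 4 exceeded every other library of the study, while KO_TAC 1 and 2 lay inside the range of the controls. The log2 fold changes of 1.61 against KO_sham (SE 0.68, edgeR adjusted p = 0.0882) and 1.32 against FF_TAC (SE 0.67, edgeR adjusted p = 0.192) did not pass. Set against the lipase that it inhibits, there were 1.43 to 9.24 Angptl4 counts per 1000 Lpl counts in KO_TAC and 0.41 to 2.42 in KO_sham. FF_sham had 0.512 to 4.75 and FF_TAC 0.598 to 2.79, so the KO_TAC range overlapped that of every other floxed-cohort group.

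The binding proteins spread as widely in KO_TAC. Fabp3 was at 1400, 5170, 4133 and 3145 CPM there, against 3728, 2533, 3134 and 2528 in KO_sham. Fabp4 was at 232.8, 775.3, 345.2 and 234.1 CPM, against 493.9, 417.6, 553.3 and 413.1. Fabp5 was at 43.6, 25.5, 11.7 and 9.16 CPM, against 30.9, 27.5, 32.5 and 29.2. KO_TAC 1 was lowest in Lpl, Fabp3 and Fabp4 and highest in Fabp5, and KO_TAC 2 was highest in Lpl, Fabp3, Fabp4 and Gpihbp1. The coefficient of variation in KO_TAC was 51.5% for Lpl, 46.3% for Fabp3, 65% for Fabp4, 70.3% for Fabp5 and 79.5% for Gpihbp1, against 5.97% for Slc27a4, 12.4% for Cd36, 13.8% for Vldlr and 14.2% for Slc27a1. Left out in turn, these libraries moved the count of members called in KO_TAC against KO_sham. Without KO_TAC 1 it was 6, with Fabp5 also lower and Fabp3 and Angptl4 higher. Calls over all genes rose too, to 6440 of 15802, where 4031 of 15596 were called with all libraries. Without KO_TAC 2 the count of members was 4, with Fabp4 and Gpihbp1 lower and Slc27a1 lost, and the same 4 genes were then called against FF_TAC. Of 15871 genes, 2653 were then called against KO_sham and 1770 against FF_TAC. The part that the atrial RNA of KO_TAC 1 has in these values was not tested.

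Fabp3 was the 1 member above its controls without overlap in FF_TAC against FF_sham. It was at 3357, 4439, 3866 and 4299 CPM after TAC and at 3267, 2919, 3073 and 3214 after sham, and it did not pass the test. Of all genes, 2.74% were higher without overlap in that comparison and 0% were called. Slc27a4 was the steadiest member, with group means from 23.8 to 26.4 CPM over the 8 groups.

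No member passed the test in FF_TAC against FF_sham or in KO_sham against FF_sham, where 0% of all genes did. At an unadjusted p under 0.05, Slc27a1 was lower in the first, as were 4.44% of all genes, and no member passed that limit in the second, where 5.22% of all genes did. DESeq2 called no member in either. Before overload, differences between knockout and control hearts in these genes were not detectable at this group size, with KO_sham means of 1353 ± 126 CPM for Cd36, 256 ± 18.4 for Vldlr and 217.9 ± 37.7 for Slc27a1 (SD, n = 4) beside FF_sham means of 1474 ± 125, 278.3 ± 22.8 and 281.9 ± 54.1.

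In bulk tissue, fewer cells of a type and less RNA per cell cannot be told apart, and markers of the vessel wall moved in the same comparisons. The summed level of 8 endothelium markers was 554.3 to 777.5 CPM in KO_TAC, below the 791.9 to 1010 CPM of KO_sham and the 821 to 1096 CPM of FF_TAC. Of the 8, 5 fell against KO_sham and 4 against FF_TAC, among them the VEGF receptor Kdr, by 1.30 and 1.35 on the log2 scale. None was at 0 in any group. Of all genes, 11.5% fell against KO_sham and 6.8% against FF_TAC. Of 4 pericyte markers, 2 fell against KO_sham and 3 against FF_TAC, with sums of 525.3 to 854.8 CPM in KO_TAC and 900.7 to 1152 CPM in KO_sham. Of 8 cardiomyocyte markers, 3 fell in each comparison, and the sums overlapped, at 50500 to 71826 CPM in KO_TAC and 59209 to 61351 CPM in KO_sham.

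Set against those sums, Cd36 was at 140.3 ± 34.1 CPM per 100 CPM of endothelium markers in KO_TAC and 150.1 ± 26.9 in KO_sham (SD, n = 4). For Vldlr these values were 30.2 ± 4.25 and 28.1 ± 1.28. Per 100 CPM of cardiomyocyte markers, Cd36 was at 1.25 to 1.81 CPM in KO_TAC and 2.06 to 2.45 in KO_sham, with no overlap, and Vldlr at 0.231 to 0.435 and 0.395 to 0.455. The Vldlr ranges overlapped. No test was run on these ratios, and no share of all genes was taken for them. Fibroblast markers were higher, with 3 of 8 risen in each comparison and sums of 2027 to 2524 CPM in KO_TAC and 1083 to 1680 in KO_sham. Of all 15596 genes, 2233 rose against KO_sham and 1175 against FF_TAC. Macrophage markers had sums of 257.3 to 319.5 CPM in KO_TAC and 211.4 to 374.8 in KO_sham, and 4 of 8 rose against FF_TAC. Their part in the fall of Cd36 and Vldlr was not tested.

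**Figure D4:**
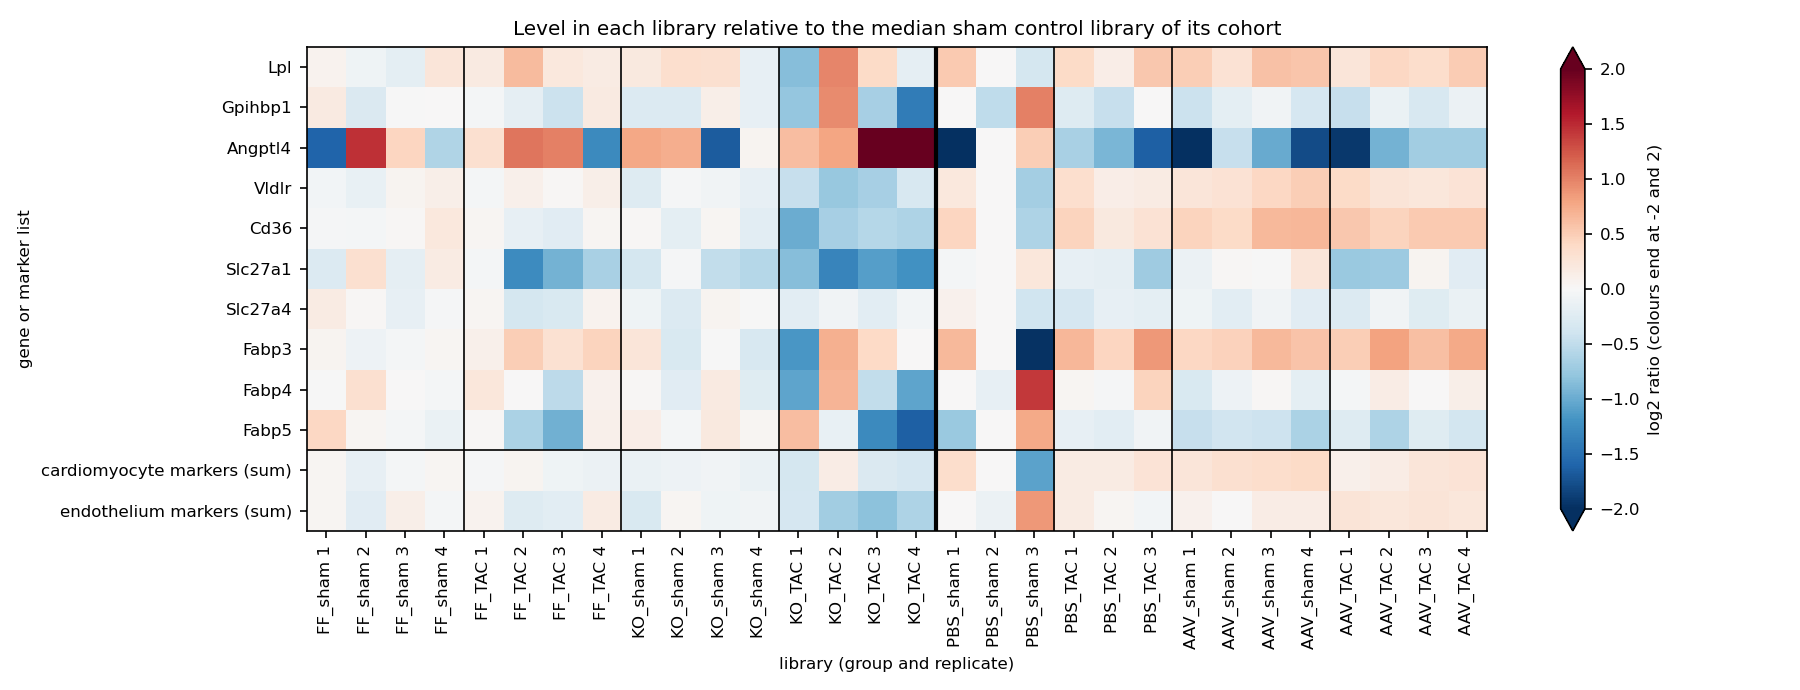
Log2 ratio of each gene, and of the summed cardiomyocyte and endothelium markers, in each library (columns, by group and replicate) to the median sham control library of its cohort (FF_sham or PBS_sham). Blue is lower and red higher, with colours ending at -2 and 2. Cd36, Vldlr, Slc27a1 and the endothelium sum are blue in all 4 KO_TAC libraries. Slc27a1 is also below the FF_sham median in every FF_TAC and KO_sham library, and Vldlr in every KO_sham library. PBS_sham 3 has its own pattern, red in Fabp4 and Gpihbp1 and blue in Fabp3.

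Other genes of the route moved in both directions in KO_TAC, and their counts stand beside the 25.8% of all genes that changed against KO_sham and the 14.3% against FF_TAC. Like the marker counts above, these counts are from the fit with all libraries and without the haemoglobin term. With that term, 273 of 15596 genes were called against KO_sham and 1127 against FF_TAC. Which of the other genes kept a call is not given here. Of 13 regulators of the uptake genes, 4 fell, 1 rose and 8 did not pass against KO_sham, and 4 fell and 9 did not pass against FF_TAC. Their median log2 fold changes were -0.22 and -0.19. Ppara, the nuclear receptor that drives fatty acid genes in heart, fell from 13.4 ± 2.21 CPM in KO_sham to 5.34 ± 1.24 (SD, n = 4), a log2 fold change of -1.33 (SE 0.22, edgeR adjusted p = 0.00203), and by 1.23 against FF_TAC (edgeR adjusted p = 0.00297). Its partners Rxra and Rxrg fell as well, Rxrg by 0.68 against FF_TAC (SE 0.12, edgeR adjusted p = 0.00252). Tcf15, which with Meox2 drives uptake genes in heart endothelium, also fell in both, whereas Foxo1 rose against KO_sham alone, and the difference between the comparisons was not tested.

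Of 10 PPAR target genes of heart outside the members, 4 fell in each comparison and none rose: the thioesterases Acot1 and Acot2, the medium-chain acyl-CoA dehydrogenase Acadm and the malonyl-CoA decarboxylase Mlycd. Acot2 was at 41.8 ± 5.56 CPM in KO_TAC, 72.4 ± 10.4 in KO_sham and 82.9 ± 13.2 in FF_TAC (SD, n = 4), and its log2 fold change against FF_TAC was -0.99 (SE 0.15, edgeR adjusted p = 0.00111). Pdk4, Plin2 and 4 more did not pass. These are the same libraries in which Cd36, Vldlr and Slc27a1 fell, and a link between these falls was not tested.

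Among 8 other tested genes for lipoprotein receptors and their partners, 3 rose and 1 fell in each comparison. Lrp8, which encodes the apolipoprotein E receptor closest in build to that of Vldlr, rose from 1.13 ± 0.231 CPM in KO_sham to 9.07 ± 3.37 (SD, n = 4, edgeR adjusted p = 0.00181). Lrp1 rose and the scavenger receptor Scarb1 fell in both comparisons. Vldlr thus fell where 2 receptors of its family rose.

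Of 12 genes for caveolae and Cd36 trafficking, 3 changed against KO_sham and 2 against FF_TAC, shares near those of all genes. Cavin3 rose against KO_sham, from 16.2 ± 1.55 to 32.1 ± 5.18 CPM (SD, n = 4), with a log2 fold change of 0.98 (SE 0.16, edgeR adjusted p = 0.00181), and Cav2 and Cavin2 fell. Against FF_TAC, Cavin3 rose and Cav2 fell. Of 9 tested genes for lipase maturation and control, 1 rose against KO_sham (Sdc4, a heparan sulfate proteoglycan) and none against FF_TAC. Of 4 other transporters and binding proteins that could be tested, none changed. In the other 8 comparisons no gene of the 6 lists was called. Genes named here outside the 3 of smallest p in each comparison were chosen after their values were seen.

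In the AAV9 cohort, no member passed the test in any of 5 comparisons, by edgeR or DESeq2. In AAV_sham against PBS_sham, 0.0127% of all genes were called. At an unadjusted p under 0.05, Cd36 and Vldlr were higher, where 5.93% of all genes were, and Fabp4 and Fabp5 lower, where 14.8% were. Cd36 was at 1486, 1412, 1709 and 1715 CPM in AAV_sham and at 1469, 1087 and 709.7 CPM in PBS_sham. Vldlr was at 301.7, 314.8, 342.7 and 359 CPM in AAV_sham and at 296.4, 256.4 and 160.5 CPM in PBS_sham, the 1 member higher without overlap (5.53% of all genes). The log2 fold changes were 0.54 for Cd36 (edgeR adjusted p = 0.193), 0.47 for Vldlr (edgeR adjusted p = 0.186), -0.74 for Fabp4 (edgeR adjusted p = 0.2) and -0.60 for Fabp5 (edgeR adjusted p = 0.198). For Angptl4 and Gpihbp1 they were -1.03 and -0.56 (edgeR adjusted p = 0.268 and 0.247).

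These values rested on PBS_sham 3. That library had 1364 CPM of Fabp4, 175.2 of Gpihbp1 and 70.7 of Fabp5, where the other 2 had 459.3 to 511.9, 60.9 to 87 and 25.2 to 42, and it had 537.1 CPM of Fabp3 where they had 2123 and 3343. Its cardiomyocyte and endothelium marker sums are given above, and its adipocyte marker sum was 295.7 CPM, against 60.9 and 498.8 in the other 2. The part these have in its levels was not tested. Without it, the log2 fold changes became 0.31 for Cd36, 0.25 for Vldlr, -0.06 for Fabp4, -0.15 for Fabp5, -0.50 for Angptl4 and -0.02 for Gpihbp1. Without PBS_sham 1, which leaves PBS_sham 3 as 1 of 2, 6 members were called, with Cd36, Lpl and Vldlr higher and Angptl4, Fabp4 and Fabp5 lower. In that setting 2821 of 16209 genes were called, where 2 of 15745 were called with all libraries. In PBS_TAC against PBS_sham, Gpihbp1 likewise went from a log2 fold change of -0.53 (edgeR adjusted p = 0.317) to 0.01 without PBS_sham 3.

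In overloaded hearts the groups with and without the vector lay close together, and so did their Cpt1a levels, given above. Cd36 was at 1585, 1487, 1560 and 1561 CPM in AAV_TAC and at 1478, 1245 and 1324 CPM in PBS_TAC, which did not overlap, as for 4.19% of all genes in that direction. Fabp5 was at 27.4 to 35.6 CPM in AAV_TAC and 36.4 to 39.9 in PBS_TAC, also without overlap, as for 4.28% of all genes. Neither passed the edgeR test, whose adjusted p was 1 for Cd36. No member passed in PBS_TAC against PBS_sham (0.0318% of all genes called), AAV_TAC against AAV_sham (0.00635%), AAV_TAC against PBS_TAC (0.0381%) or the interaction of vector and TAC (0.00635%). At an unadjusted p under 0.05, Slc27a1 was lower in AAV_TAC against AAV_sham, as were 3.66% of all genes. No member passed that limit in the other 3, where 18.5%, 3.19% and 6.95% of all genes did.

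Members that vary together were described by Pearson's r of log2 CPM, over 16 floxed and 14 AAV9 libraries that share each group's treatment and each library's tissue make-up. Lpl and Fabp3 had r of 0.85 over the floxed and 0.87 over the AAV9 libraries. Gpihbp1 and Fabp4 had 0.88 and 0.94, and Cd36 and Vldlr 0.78 and 0.97. With the summed endothelium markers, Gpihbp1 had 0.31 over the floxed and 0.76 over the AAV9 libraries, and Fabp4 0.28 and 0.79. With the cardiomyocyte sum, Gpihbp1 had 0.85 and -0.76, and Fabp4 0.79 and -0.86. In each cohort, the library highest in Gpihbp1 was also the highest in Fabp4, and its part in these values was not tested. Cd36 had 0.72 over the floxed and -0.53 over the AAV9 libraries with the endothelium sum, and 0.51 and 0.91 with the cardiomyocyte sum. For Vldlr these were 0.85 and -0.64 with the endothelium sum, and 0.32 and 0.93 with the cardiomyocyte sum. After the group means were removed, r of Cd36 and Vldlr was -0.04 in the floxed cohort, so that their likeness there lay between groups, and 0.96 in the AAV9 cohort, where PBS_sham 3 is low in both. Cd36 and Fabp4 had 0.56 over the floxed and -0.78 over the AAV9 libraries.

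The genes closest to each member over the floxed libraries, among 10498 genes, were taken as the 2 of highest r. For Cd36 they were Hadha, which encodes the alpha subunit of the mitochondrial trifunctional protein of fatty acid oxidation (r = 0.97, and 0.91 over the AAV9 libraries), and Oma1 (0.96 and 0.89). For Vldlr they were Intu (0.95 and 0.75) and Trappc10 (0.95 and 0.94), and for Lpl Asb11 (0.93 and 0.88) and Mrps5 (0.91 and 0.78). For Fabp3 the first was Fabp3-ps1, the pseudogene that shares its sequence (0.96 and 0.92), then Gmnn (0.95 and 0.97). For Fabp4 they were Ttc38 (0.97 and -0.63) and Mgll, the monoglyceride lipase (0.91 and 0.95), and for Gpihbp1 Mxd4 (0.89 and 0.77) and Fabp4 itself. The genes closest to Slc27a1, Smarcc2 (0.97 and 0.59) and Zer1 (0.96 and 0.18), had lower r over the AAV9 libraries, as did those of Slc27a4 (Tepsin, 0.86 and -0.26, and Desi2, 0.84 and 0.41). For Angptl4 they were Cyp4v3 (0.88 and 0.58) and Mindy3 (0.84 and -0.11), and for Fabp5 Ajuba (0.91 and 0.58) and Cracr2b (0.89 and 0.83).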

How the data were processed

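Poly(A) RNA was sequenced from 30 hearts with a directional kit, as paired-end reads of 100 bases, per the labels' protocols. The deposited values are raw counts per gene and library, whole numbers that the authors made; the submitters' processing notes name HISAT2 2.1.0, featureCounts, Subread 1.5.1 and the build GRCm38, without parameters, strand setting or annotation release. Symbols, coordinates and transcript lengths came from GENCODE mouse release M21, which matched 55141 of 55487 identifiers, and those without a symbol held 0.0192% of the counts. KO_TAC samples have titles that name both operations, so the genotype and treatment labels were used. No 2 libraries were duplicates: over 42 pairs within groups, chi-square per degree of freedom ran from 6.29 to 234.

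The 2 cohorts were fitted apart, each group having its mean, with edgeR 4.0.16 in R 4.3.3 (glmQLFit and glmQLFTest, TMM scaling, filterByExpr), over 15596 genes (floxed) and 15745 genes (AAV9), and p-values were adjusted over all of them by Benjamini-Hochberg. A gene was called at an adjusted p under 0.05. The fit was tested on simulated data. Alternatives were DESeq2 1.42.0, RLE scaling, no filter, a mean of at least 5 CPM, a replicate block, a term for or a split by haemoglobin transcripts (limit 100 CPM), an atrial covariate in the AAV9 cohort, and leaving out libraries. All 10 members were named; from each list of other genes of the route, the text names by rule the 3 of smallest p among called genes in a comparison where a member was called. Likeness used log2 CPM with a prior count of 2 and genes that averaged 5 CPM or more. The members, lists and alternatives were chosen with earlier results of these data known. The microRNA work of the design text was not analysed here.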

Additional observations from a re-analysis of the deposited data

Results flagged for a closer look

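In groups of 4, a library was looked at again where its gap to the nearest other took up most of the group's range (Dixon's 95% limit). Of 60 pairs of a member and a group, 3 stood out, and chance gives about 1 in 20. Lpl was at 9329 CPM in FF_TAC 2, where the other FF_TAC libraries had 6741 to 6978, and this library had little haemoglobin RNA. Fabp4 was at 606.7 CPM in FF_sham 2, where the others had 471.8 to 490.1. That library also had an adipocyte marker sum of 293.3 CPM and an atrial marker sum of 2797 CPM, where the other FF_sham libraries had adipocyte sums of 41.9 to 71.9. Gpihbp1 was at 117.6 CPM in KO_TAC 2, where the others had 23.4 to 38.9.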

How the results depend on the processing

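Of 302 values of 20 log2 fold changes under the alternatives, 285 kept their direction and their side of the threshold, 8 lost a call, 8 gained one and 1 turned: Gpihbp1 in PBS_TAC against PBS_sham ran from -0.81 to 0.01 with libraries left out in turn. Members called in KO_TAC against KO_sham went from 3 to 0 with the haemoglobin term and ran from 2 to 6 with libraries left out. Over all genes, calls there went from 4031 to 273 and ran from 1956 to 6440. Members called in KO_TAC against FF_TAC went from 2 to 0 among haemoglobin-low libraries alone, to 3 without FF_TAC 2, FF_TAC 3 and KO_sham 2, where Slc27a1 was also lower (log2 fold change -0.81, adjusted p = 0.012), and ran from 2 to 4 with libraries left out. Over all genes, calls in KO_TAC against FF_TAC went from 2235 to 0 and 3663 in these settings and ran from 1126 to 3845. Members called in the interaction of knockout and TAC went from 0 to 1 with DESeq2, and in AAV_sham against PBS_sham ran from 0 to 6. Over all genes, calls in that interaction went from 7 to 364, and in AAV_sham against PBS_sham ran from 1 to 2821. The cause was not tested. Under RLE scaling, no filter, a mean of at least 5 CPM, DESeq2 and the replicate block, the same 3 and 2 members were called in KO_TAC. Replicate numbers do not pair the libraries: deviations of same-numbered libraries correlated from -0.37 to 0.45 (floxed) and from -0.41 to 0.40 (AAV9), and 2 of 16 and 4 of 14 libraries correlated best with their own number. With the block, the counts stayed at 3 and 2 and at 0 in the other 8 comparisons. Splits by haemoglobin gave no value where a group kept fewer than 2 libraries. Counting error weighs most on Angptl4, the member with the fewest counts, which was as low as 2.3 CPM.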
